A study of Canis lupus familiaris with 31 samples.

Results

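The genes described here are those by which B cells are recognised in blood and those by which cells display antigen, in the whole blood of Miniature Schnauzers with and without HTG, a raised level of triglycerides in the blood serum. They were chosen by symbol: a row of the table of counts was taken when its symbol was 1 of 31 named genes or began with DLA- or HLA-D, the prefixes of the dog and human major histocompatibility complex (MHC). Of the 32704 rows, 37 met this rule, of which 27 were named genes and 10 were DLA- or HLA-D rows. CR2, SPIB, XBP1 and TAP2 had no row of that symbol and were not analysed here. The row DLA88, a class I gene written without the hyphen, falls outside the rule and is given only for comparison.

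Blood came from 31 purebred dogs, each sampled once and sequenced as 1 library. The 13 HTG cases (5 females, 8 males) had high serum triglycerides after a fast, and the 18 controls (8 females, 10 males) had normal ones. All were privately owned older adult dogs given no experimental treatment, nearly all were neutered, and cases with an endocrine disease that raises lipids had been kept out. Every dog is a separate animal, so that the spread between libraries is spread between dogs, and their diets differed.

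B cells carry the B cell receptor, an antibody molecule held in the membrane beside the signalling chains CD79A and CD79B. When they meet antigen they can become plasma cells, which switch off most of the B cell programme and secrete antibody. Like monocytes and dendritic cells, B cells show peptides from outside proteins to T cells on MHC class II, whereas nearly all nucleated cells show peptides from their own proteins on MHC class I. In whole blood, B cells are a minority of the leukocytes and neutrophils are the majority, and a lower level of a gene in such a sample can come from fewer cells of a type or from less RNA per cell, which cannot be told apart here.

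Counts on genes ran from 16363134 to 34312116 per dog in the HTG cases, with a median of 20588919, and from 14524659 to 41533599 in the controls, with a median of 19679367. Levels are given as CPM, a gene's counts divided by the library size after edgeR's TMM normalization and put on a common scale, and fold changes as the log2 of cases over controls from edgeR's quasi-likelihood test with its standard error (SE). All 37 genes passed the filter on low counts. The dogs also fell into 2 sets that cut across the groups. The mean log2 CPM of 366 rows that carry names of small non-coding RNAs was 1.66 to 2.37 in 10 dogs (5 cases, 5 controls) and 0.68 to 1.40 in the other 21 dogs (8 cases, 13 controls). Cases and controls are also compared within each side of this split. The study's methods mention an earlier pilot preparation of as many cases and as many controls as the set of 10 holds, and the labels do not name its dogs, so that whether the 10 are the pilot was not tested. The library of control 3, which is in that set, stood apart, with the smallest total and a TMM factor of 0.527 where the other 30 dogs had 0.752 to 1.24.

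None of the 37 genes passed the threshold between HTG cases and controls (edgeR quasi-likelihood test, Benjamini-Hochberg adjusted P-value of at most 0.05 over 13918 genes). That comparison called 5 genes in all, which is 0.0359% of those tested. At an unadjusted P-value below 0.05, 4 of the 37 genes stood out, all of them higher in the cases: BANK1, TAPBP, DLA-12 and B2M. Of all genes tested, 9.81% had such a P-value, with 5.04% higher and 4.76% lower in cases. DESeq2 called 0 of the 37 genes, where it called 0.332% of 25584 genes, and 4 of the 37 had an unadjusted P-value below 0.05, as 6.76% of all genes it tested did. Those 25584 genes include rows that edgeR's filter on low counts left out, whereas all 37 passed it. The shares from DESeq2 are therefore no like background for the 37. Limma-voom called 0 of the 37 and 0 of all genes, and 5 of the 37 had an unadjusted P-value below 0.05, against 11.2% of all genes. In edgeR's fit 28 of the 37 genes had a log2 fold change above 0 and 9 had one below 0, and the median was 0.06 over the 37 genes against -0.02 over all genes tested, of which 45.5% lay above 0. The groups overlapped for all 37 genes, but overlap was not counted over all genes tested, so that this says nothing particular of the 37. Without control 3, edgeR called 154 of 13904 genes (1.11%) and 0 of the 37, and BANK1, TAPBP, DLA-12 and B2M were again the 4 with an unadjusted P-value below 0.05, as 16.5% of all genes tested had. Their adjusted P-values in edgeR's quasi-likelihood test were then 0.157, 0.199, 0.289 and 0.142.

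**Figure D1:**
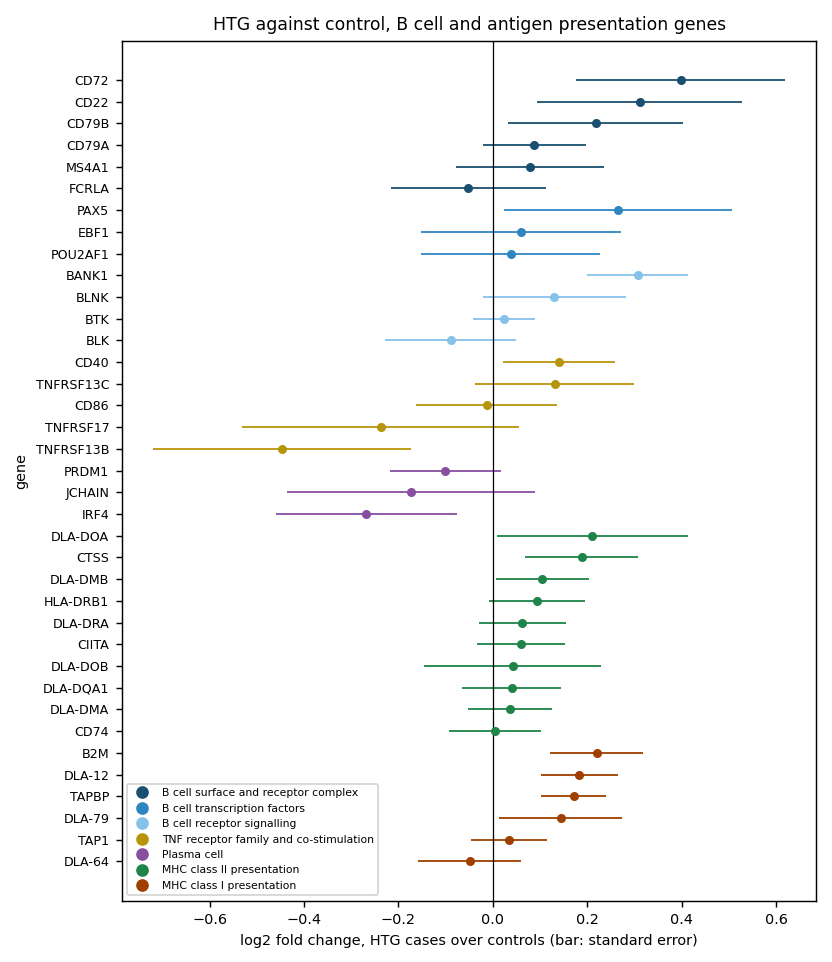
Log2 fold change of HTG cases over controls (x axis) for the 37 genes, arranged by role, with bars of 1 SE from edgeR's quasi-likelihood fit. CD72 at 0.40 and TNFRSF13B at -0.45 lie farthest from 0, with SE of 0.22 and 0.27 (0.35 and -0.26 without control 14), and the 4 genes with an unadjusted P-value below 0.05 are all on the higher side.

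The first of these roles is the surface of the B cell. MS4A1 encodes CD20, the membrane protein by which B cells are most often counted and depleted. Its level ran from 13.0 through a median of 20.1 to 24.5 CPM in the cases and from 8.37 through 19.4 to 33.1 CPM in the controls, so that the cases lay inside the range of the controls. The means were 19.3 ± 3.57 CPM (SD, n = 13) and 18.3 ± 6.60 CPM (SD, n = 18), and the log2 fold change was 0.08 (SE 0.16, edgeR adjusted P = 0.913). CD79A, a signalling chain of the B cell receptor, had 42.2 ± 8.18 CPM in cases and 39.7 ± 8.64 CPM in controls (log2 fold change 0.09, SE 0.11). Its partner chain CD79B had 28.4 ± 7.83 and 24.4 ± 9.65 CPM (log2 fold change 0.22, SE 0.18). FCRLA, an Fc receptor-like protein kept inside B cells, was the only gene of the 6 in this role with a log2 fold change below 0, at -0.05 (SE 0.16).

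The other 2 surface genes, CD22 and CD72, encode receptors that damp signalling by the B cell receptor, and they had the largest log2 fold changes of the role. CD72 ran from 3.31 through 4.73 to 6.86 CPM in the cases and from 1.42 through 2.88 to 8.60 CPM in the controls. All 13 cases exceeded the control median, and yet the highest dog was a control. The log2 fold change was 0.40 (SE 0.22, edgeR adjusted P = 0.583). CD22 ran from 37.8 through 64.9 to 105 CPM in cases and from 17.0 through 48.0 to 118 CPM in controls, with a log2 fold change of 0.31 (SE 0.22, edgeR adjusted P = 0.665) and both extremes among the controls.

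The transcription factors that set up the B cell programme did not pass the threshold. PAX5, which fixes the identity of B cells, had 15.9 ± 5.07 CPM in cases and 13.2 ± 7.72 CPM in controls, a log2 fold change of 0.27 (SE 0.24, edgeR adjusted P = 0.766), and spanned 10.4-fold between the lowest dog and the highest. EBF1, which acts with PAX5 early in the lineage, had a log2 fold change of 0.06 (SE 0.21), which was 0.011 without control 3. POU2AF1, a coactivator of octamer factors used by B cells and plasma cells, had one of 0.04 (SE 0.19). It was 0.16 without control 14, the highest dog for POU2AF1, and 0.010 without control 3.

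Among the genes that carry the signal of the B cell receptor inward, BANK1 had the smallest P-value of all 37. It encodes a scaffold that links the receptor to calcium release. Without control 3 the smallest was that of B2M, at 0.00954 against 0.0117 for BANK1 (edgeR quasi-likelihood test, unadjusted P). BANK1 ran from 46.2 through 70.0 to 122 CPM in the cases and from 33.2 through 60.6 to 72.9 CPM in the controls. Of the 13 cases, 11 exceeded the control median, and case 9, at 122 CPM, was the highest dog. The means were 71.9 ± 18.1 CPM (SD, n = 13) and 58.1 ± 10.3 CPM (SD, n = 18), and the log2 fold change was 0.31 (SE 0.11, unadjusted P = 0.00713, edgeR adjusted P = 0.297). Without case 9 it was 0.22. The other 3 genes of the role lay closer to 0. BLNK, an adaptor of the same cascade, had a log2 fold change of 0.13 (SE 0.15), BLK, a kinase of the SRC family, one of -0.09 (SE 0.14), and BTK, the kinase downstream of the receptor, one of 0.02 (SE 0.07). Without control 3 these were 0.081 for BLNK, -0.13 for BLK and 0.0077 for BTK. BTK was also the steadiest of the 37 genes between dogs, from 54.6 to 87.6 CPM, a 1.61-fold span.

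The receptors of the tumor necrosis factor family tell B cells to survive or to respond to help. TNFRSF13C, the receptor for the survival factor BAFF, had 9.10 ± 2.68 CPM in cases and 8.29 ± 2.87 CPM in controls (log2 fold change 0.13, SE 0.17). CD40, which receives help from T cells, had 6.54 ± 0.931 and 5.92 ± 1.52 CPM (log2 fold change 0.14, SE 0.12), and 11 of 13 cases exceeded the control median. TNFRSF13B, the receptor TACI that binds BAFF and APRIL, had the largest log2 fold change of the 37 genes in size, at -0.45 (SE 0.27, edgeR adjusted P = 0.624), from 2.98 ± 1.35 CPM in cases and 4.07 ± 2.61 CPM in controls. Its levels were low, with 14 to 255 counts per dog, and ran from 0.974 through 3.17 to 5.49 CPM in cases and from 1.61 through 3.47 to 12.5 CPM in controls. The highest dog was control 14, and without it the log2 fold change of TNFRSF13B was -0.26, smaller in size than those of CD72 (0.35), CD22 (0.29) and BANK1 (0.30). TNFRSF17, the receptor BCMA of plasma cells, had a log2 fold change of -0.24 (SE 0.29), and CD86, a co-stimulatory ligand of antigen-presenting cells, one of -0.01 (SE 0.15). That of CD86 was -0.041 without control 3.

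All 3 genes of the plasma cell role had log2 fold changes below 0 and none passed the threshold. JCHAIN, the chain that joins antibody units into polymers, ran from 68.1 through 134 to 286 CPM in the cases and from 68.8 through 130 to 518 CPM in the controls. The medians nearly met while the highest dogs, controls 9 and 14 at 518 and 435 CPM, pulled the mean of the controls up to 172 ± 120 CPM (SD, n = 18) against 152 ± 64.6 CPM (SD, n = 13) in the cases. The log2 fold change was -0.17 (SE 0.26, edgeR adjusted P = 0.877). IRF4, a transcription factor of plasma cells and activated lymphocytes, had 60.0 ± 20.8 and 72.3 ± 34.4 CPM (log2 fold change -0.27, SE 0.19, edgeR adjusted P = 0.679), and PRDM1, which drives the switch to secretion, had 83.5 ± 17.2 and 89.5 ± 23.5 CPM (log2 fold change -0.10, SE 0.12). Control 14 was the highest dog for IRF4, at 189 CPM. Leaving this dog out brought the log2 fold changes of IRF4 to -0.12, JCHAIN to -0.04, TNFRSF17 to -0.04 and PRDM1 to -0.04.

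All 10 genes of class II presentation had log2 fold changes above 0, of 0.00 to 0.21 with a median of 0.06, and none had an unadjusted P-value below 0.05. That shared sign did not hold in every subset of dogs. CD74 was below 0 without control 3 (-0.022), DLA-DRA, DLA-DQA1, DLA-DMA and CD74 were below 0 on the high side of the small RNA split, and DLA-DOB and CIITA on the low side. Without control 3 on the high side, DLA-DRA, HLA-DRB1, DLA-DQA1, DLA-DMA, DLA-DMB, CTSS and CD74 were below 0. Their rows are named DLA-DRA, HLA-DRB1, DLA-DQA1, DLA-DMA, DLA-DMB, DLA-DOA and DLA-DOB, beside CD74, CIITA and CTSS. DLA-DRA, the alpha chain of the DR molecule that holds the peptide, ran from 682 through 868 to 1065 CPM in cases and from 622 through 803 to 1110 CPM in controls (log2 fold change 0.06, SE 0.09, edgeR adjusted P = 0.873). HLA-DRB1 and DLA-DQA1, chains of the peptide-binding DR and DQ molecules, had log2 fold changes of 0.09 (SE 0.10) and 0.04 (SE 0.10). Without control 3 the log2 fold change was 0.060 for HLA-DRB1, 0.0038 for DLA-DQA1, 0.038 for DLA-DRA, 0.020 for DLA-DMA, 0.021 for DLA-DOB and 0.023 for CIITA, and it was 0.13 for DLA-DOB without control 11. DLA-DMA and DLA-DMB, which load the peptides, had 0.04 (SE 0.09) and 0.10 (SE 0.10). DLA-DOA and DLA-DOB, which restrain the loading, had 0.21 (SE 0.20) and 0.04 (SE 0.19). CD74, the chaperone that fills the groove until a peptide arrives, had 1184 ± 245 CPM in cases and 1181 ± 182 CPM in controls, with an edgeR adjusted P-value of 0.994. CIITA, the coactivator that switches the class II genes on, had 112 ± 11.5 and 107 ± 22.4 CPM (log2 fold change 0.06, SE 0.09). CTSS, the protease that cuts CD74, had the smallest P-value of the role, with 167 ± 39.4 CPM in cases and 146 ± 33.1 CPM in controls (log2 fold change 0.19, SE 0.12, edgeR adjusted P = 0.636).

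Of the 6 genes of class I presentation, 3 had an unadjusted P-value below 0.05, all higher in cases, where 5.04% of all genes tested did. Within the sides of the small RNA split their log2 fold changes were 0.14 to 0.23, and of the 3 only DLA-12, on the low side, kept such a P-value. DLA-12 did not have one with age as a covariate, nor B2M with the dog number as a block. TAPBP encodes tapasin, which holds empty class I molecules at the peptide transporter. It ran from 175 through 213 to 240 CPM in the cases and from 146 through 186 to 230 CPM in the controls, with 12 of 13 cases above the control median, and its log2 fold change was 0.17 (SE 0.07, unadjusted P = 0.0176, edgeR adjusted P = 0.365). DLA-12, a class I heavy chain gene, ran from 731 through 888 to 1161 CPM in cases and from 617 through 785 to 993 CPM in controls, again with 12 of 13 cases above the control median. Its log2 fold change was 0.18 (SE 0.08, unadjusted P = 0.0315, edgeR adjusted P = 0.451). B2M, the light chain that every class I molecule carries, ran from 3417 through 4879 to 6521 CPM in cases and from 2927 through 3937 to 5705 CPM in controls, with 10 of 13 cases above the control median. Its log2 fold change was 0.22 (SE 0.10, unadjusted P = 0.0325, edgeR adjusted P = 0.452). Each of the 3 differences between means was smaller than 1 SD of the controls.

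The remaining class I genes were closer to level. TAP1, a subunit of the peptide transporter, had 118 ± 11.3 CPM in cases and 116 ± 21.5 CPM in controls (log2 fold change 0.03, SE 0.08). The heavy chain rows DLA-79 and DLA-64 had log2 fold changes of 0.14 (SE 0.13) and -0.05 (SE 0.11). DLA88, outside the rule, had 782 ± 200 and 745 ± 260 CPM (log2 fold change 0.07, SE 0.16, edgeR adjusted P = 0.925). Class I heavy chain genes resemble each other and vary between dogs, so that a read pair of one may be counted on another or lost, and the values of DLA-12, DLA-64, DLA-79 and DLA88, and of the class II rows that vary most, are uncertain for that reason. By symbol, 36 of the 37 genes were found in the RefSeq annotation of the dog assembly UU_Cfam_GSD_1.0, the exception being DLA-12. In its order of genes, 10 of them, among them TAP1 and TAPBP, lay within 1 block of 94 protein-coding genes reaching from DLA88 to TAPBP.

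**Figure D2:**
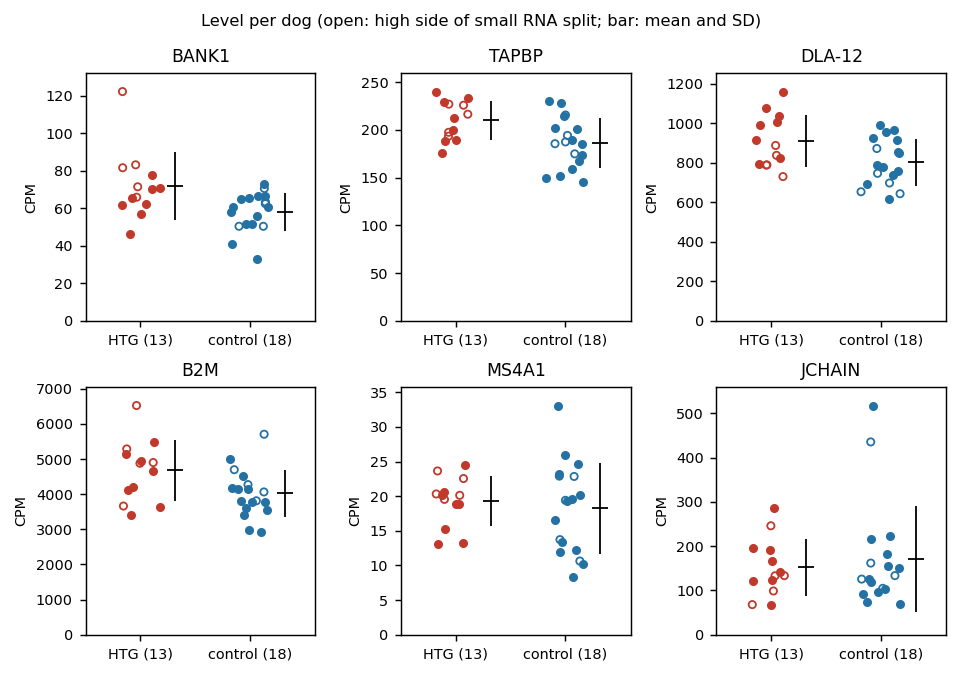
CPM in every dog (y axis) for BANK1, TAPBP, DLA-12, B2M, MS4A1 and JCHAIN, in HTG cases and controls, with the group mean and SD and with open points for the 10 dogs high in small RNA rows. Cases and controls overlap in all 6 panels, the highest BANK1 point is case 9 at 122 CPM, and the 2 highest JCHAIN points are controls at 518 and 435 CPM.

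The genes differed in how much they varied between dogs. The biological coefficient of variation, edgeR's estimate of the spread between dogs beyond counting error, had a median of 0.255 over the 37 genes and 0.248 over all genes tested. TNFRSF17 lay at percentile 88.5 of all genes tested, TNFRSF13B at 85.9, JCHAIN at 85.2 and PAX5 at 82.1, while BTK lay at percentile 8.55 and TAPBP at 13.2. The ratio of the highest to the lowest dog was 12.8 for TNFRSF13B, 10.4 for PAX5, 10.0 for TNFRSF17 and 9.07 for DLA-DOA, and it was 1.65 for TAPBP, 1.79 for DLA-DRA and 1.88 for DLA-12. Single dogs held many of the extremes. Control 11 was the highest dog for 9 of the 37 genes and control 14 for 6, while control 3, the library that stood apart, was the lowest for 10. Without control 11 the log2 fold changes of CD22 and PAX5 were 0.42 and 0.42, and 6 of the 37 genes had an unadjusted P-value below 0.05, against 9.23% of the genes tested.

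**Figure D3:**
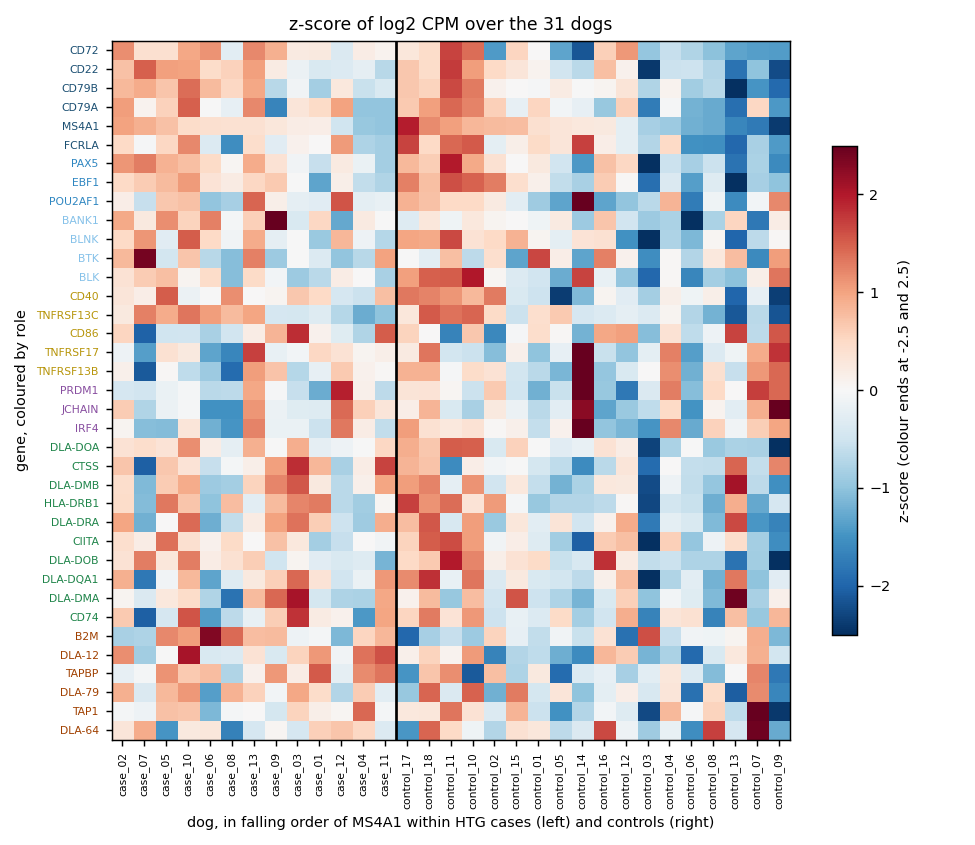
Level of each of the 37 genes (rows, by role) in each of the 31 dogs (columns, cases and controls), as the log2 CPM of the gene minus its mean over dogs, divided by its SD. Single dogs such as control 11 and control 3 are high or low for many B cell genes together, and no role separates the cases from the controls.

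The genes were then set against each other from dog to dog, to see which were high in the same dogs. Of 24 pairs of genes listed, 22 had both genes in the table, and for 16 of the 22 the adjusted P-value of Pearson's r was 0.05 or less (permutation tests with 100000 resamples, two-sided, with Benjamini-Hochberg adjustment over the 22 pairs). Over the 31 dogs, MS4A1 went with CD22 at r = 0.81 and Spearman's rho = 0.84, and each had a permutation P-value of 1e-05, the smallest these permutations can give, and an adjusted one of 2.44e-05. The r was 0.76 without the 2 dogs farthest from the median of MS4A1, and it was 0.88 on the high side of the small RNA split and 0.85 on the low side. CD79B, TNFRSF13C and PAX5 went with MS4A1 to a like degree, with r of 0.79, 0.79 and 0.74 and rho of 0.80, 0.82 and 0.81, each with an adjusted permutation P-value of 2.44e-05. Without the 2 farthest dogs these were 0.72, 0.75 and 0.71. FCRLA (r = 0.70, rho = 0.64), CD79A (r = 0.63, rho = 0.66) and CD40 (r = 0.58, rho = 0.56) followed, with adjusted permutation P-values for r of 4.4e-05, 0.0003 and 0.00126 and for rho of 0.00036, 0.00022 and 0.00277.

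BANK1, BLK and CIITA were tied to MS4A1 more loosely. For CIITA, r was 0.49 and rho 0.52, with adjusted permutation P-values of 0.00811 and 0.00425, and r was 0.33 on the high side of the split and 0.68 on the low side. For BANK1, r and rho were both 0.40 (adjusted permutation P = 0.0399 and 0.0395), and r was 0.16 and 0.48 on these sides. For BLK, r was 0.39 and rho 0.50 (adjusted permutation P = 0.0436 and 0.00707), with r of 0.65 and 0.30 on the 2 sides. Without the 2 farthest dogs r was 0.39 for CIITA and 0.38 for BANK1, with adjusted permutation P-values of 0.052 and 0.0593, and 0.63 for BLK. Without control 3, r was 0.38 for BANK1 and 0.36 for BLK, and both missed the threshold. CD74 had an r of 0.11 with MS4A1 and a rho of 0.09 (adjusted permutation P = 0.599 and 0.641). TNFRSF13B (r = -0.16, rho = -0.12), CD86 (r = -0.25, rho = -0.23) and JCHAIN (r = -0.26, rho = -0.15) also missed the threshold with MS4A1, with adjusted permutation P-values for r of 0.434, 0.195 and 0.189. On the high and the low side, r with MS4A1 was -0.29 and 0.35 for CD74, -0.02 and -0.24 for TNFRSF13B, -0.57 and -0.08 for CD86 and 0.08 and -0.39 for JCHAIN.

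JCHAIN was paired only with MS4A1 and with listed genes used by plasma cells, and it was not ranked against all genes. JCHAIN went with TNFRSF17 at r = 0.86 and rho = 0.82, with PRDM1 at r = 0.83 and rho = 0.81, with IRF4 at r = 0.82 and rho = 0.79, and with POU2AF1 at r = 0.79 and rho = 0.76, each with an adjusted permutation P-value of 2.44e-05. Without the 2 dogs farthest from the median of JCHAIN the r was 0.79, 0.77, 0.80 and 0.73. On the high side of the small RNA split it was 0.89, 0.95, 0.94 and 0.89, and on the low side 0.86, 0.78, 0.78 and 0.74. IRF4 and PRDM1 are also made by T cells and myeloid cells.

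Among the genes of antigen presentation, CTSS went with CD86 at r = 0.78 and rho = 0.71 (adjusted permutation P = 2.44e-05 for both), with r of 0.82 and 0.73 on the 2 sides of the split and of 0.73 without the 2 farthest dogs. TAP1 and TAPBP had an r of 0.42 (adjusted permutation P = 0.0278) and a rho of 0.33 (adjusted permutation P = 0.0931). This relation rested on controls 7 and 9, without which r was 0.25, and r was 0.08 on the high side of the split and 0.60 on the low side. CD74 and CIITA had an r of 0.35 and a rho of 0.37 (adjusted permutation P = 0.0655 and 0.0581), and TAP1 and B2M had an r of -0.02 and a rho of -0.04 (adjusted permutation P = 0.916 and 0.817), with r of -0.42 and 0.33 on the 2 sides.

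**Figure D4:**
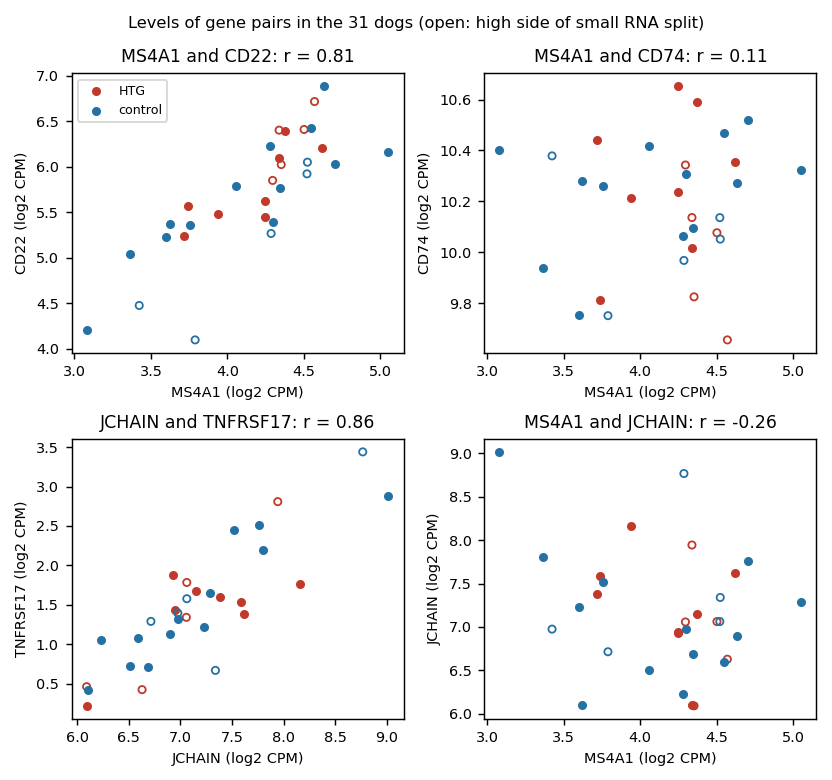
Log2 CPM of MS4A1 against CD22, MS4A1 against CD74, JCHAIN against TNFRSF17 and MS4A1 against JCHAIN, 1 point for each of 31 dogs, with cases and controls in different colours. The points follow a line for MS4A1 with CD22 and for JCHAIN with TNFRSF17, at r = 0.81 and 0.86, and scatter for MS4A1 with CD74 and with JCHAIN, at r = 0.11 and -0.26.

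Ranked by r with MS4A1 over the 31 dogs, the 20 nearest of 13917 other genes held 6 of the 37: CD22, DLA-DOB, CD79B, TNFRSF13C, EBF1 and PAX5. This ranking is a description, since all genes were read from the same libraries. The nearest was BTLA, an inhibitory receptor of lymphocytes, at r = 0.85. Others near the top were VAV2, PLEKHO1, PLEKHG1, THSD1, CFAP46, BOC, PLD4 and the Fc receptor-like gene FCRL1, at r of 0.73 to 0.81, and 4 were rows without a symbol. The class II genes were spread along this ranking. DLA-DOB was 6th (r = 0.79) and DLA-DOA was 22nd (r = 0.72), HLA-DRB1 was 186th (r = 0.50) and DLA-DRA 639th (r = 0.37), and CD74 was 4430th (r = 0.11) and DLA-DMA 6236th (r = 0.03). Of the class I genes, DLA-79 was 1156th (r = 0.31), and TAP1 (r = 0.12), DLA-12 (r = 0.04), TAPBP (r = 0.00), DLA-64 (r = -0.06) and B2M (r = -0.14) came after it.

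The 2 sides of the small RNA split were also compared with each other. Between the high side and the low one, 1053 genes were called (7.57% of those tested) and 0 of the 37 genes were, in edgeR's quasi-likelihood test with the group as a term. The nearest was DLA-12, with 765 ± 85.9 CPM in the 10 dogs of the high side and 889 ± 136 CPM in the 21 of the low side (log2 fold change -0.24, SE 0.08, edgeR adjusted P = 0.0563). CD74 was also lower on the high side (log2 fold change -0.23, edgeR adjusted P = 0.156), and B2M was higher there (0.21, edgeR adjusted P = 0.197).

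Cases and controls were then compared within each side, where edgeR called 0 of all genes. The females were cases 7 and 13 and control 2 on the high side. On the low side they were cases 1, 8 and 12 and controls 1, 6, 8, 10, 11, 12 and 16. Sex was not a term here or in the test of the difference between the sides, and its part in the values was not tested. Among the 5 cases and 5 controls of the high side, 5 of the 37 genes had an unadjusted P-value below 0.05, all higher in cases, where 2.17% of the genes tested did. PAX5 had 19.4 ± 3.70 CPM in the 5 cases and 8.54 ± 5.28 CPM in the 5 controls, a log2 fold change of 1.16 (SE 0.36), and its ranges of 15.4 to 24.6 CPM in cases and 3.40 to 15.5 CPM in controls barely met. The log2 fold change was 1.13 for CD72 (SE 0.32), 0.95 for CD22 (SE 0.35), 0.62 for TNFRSF13C (SE 0.24) and 0.51 for BANK1 (SE 0.17). Each of the 5 had an edgeR adjusted P-value of 1. Without control 3, which was the lowest of the 5 controls for PAX5, CD22 and BANK1, the log2 fold changes were 0.97 for PAX5, 1.11 for CD72, 0.75 for CD22, 0.63 for TNFRSF13C and 0.45 for BANK1, with 6.47% of the genes tested higher at an unadjusted P-value below 0.05, and edgeR called 2 genes, neither among the 37. On the low side, with 8 cases and 13 controls, the same genes had log2 fold changes of -0.11 for PAX5, 0.11 for CD72, -0.01 for CD22, -0.12 for TNFRSF13C and 0.15 for BANK1. Other genes also had unlike values on the high and the low side: CD79B (0.63 and 0.04), EBF1 (0.53 and -0.17), DLA-DOB (0.43 and -0.12), DLA-DOA (0.51 and 0.11), CIITA (0.32 and -0.05), JCHAIN (-0.51 and -0.0037) and IRF4 (-0.57 and -0.12), none with an unadjusted P-value below 0.05 on either side. On the low side, CTSS (0.26, SE 0.12) and DLA-12 (0.23, SE 0.10) were the 2 of the 37 genes that were higher in cases at an unadjusted P-value below 0.05, where 6.54% of the genes tested were.

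The difference of the HTG effect between the sides was itself tested in all 31 dogs. It was 1.28 on the log2 scale for PAX5 (SE 0.48), 1.03 for CD72 (SE 0.45), 0.97 for CD22 (SE 0.45) and 0.75 for TNFRSF13C (SE 0.35), the 4 of the 37 genes with an unadjusted P-value below 0.05, where 4.35% of the genes tested had one. None passed the threshold (edgeR quasi-likelihood test, adjusted P = 0.970 for each), and 0 of all genes did. Without control 3 the difference was 1.09 for PAX5, 1.01 for CD72, 0.77 for CD22 and 0.76 for TNFRSF13C, and CD22 no longer had an unadjusted P-value below 0.05. The 3 class I genes with an unadjusted P-value below 0.05 in all dogs had log2 fold changes, on the low and the high side, of 0.18 and 0.14 for TAPBP, 0.23 and 0.16 for DLA-12 and 0.22 and 0.16 for B2M.

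**Figure D5:**
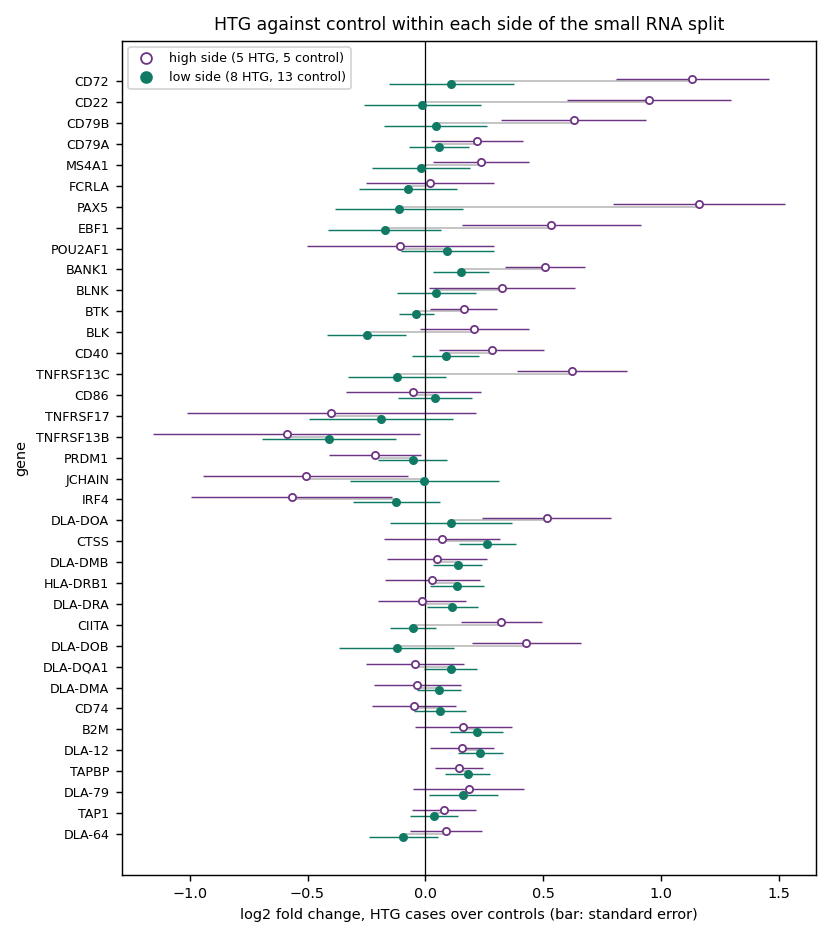
Log2 fold change of HTG cases over controls within the high side (5 cases, 5 controls) and the low side (8 cases, 13 controls) of the small RNA split for the 37 genes, with bars of 1 SE. PAX5, CD72 and CD22 reach 1.16, 1.13 and 0.95 on the high side and lie between -0.11 and 0.11 on the low side, while TAPBP, DLA-12 and B2M lie between 0.14 and 0.23 on both.

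The sexes were compared in the same libraries. Of 15030 genes tested with the group as a term, 17 (0.113%) were called between 13 females and 18 males, and 0 of the 37 were. At an unadjusted P-value below 0.05 there were 5 of the 37, where 4.63% of the genes tested had one. DLA-DOB had 33.2 ± 11.7 CPM in females and 24.8 ± 7.95 CPM in males (log2 fold change of females over males 0.44, SE 0.17), CD22 had 67.6 ± 25.3 and 50.4 ± 21.1 CPM (0.49, SE 0.20) and PAX5 had 17.0 ± 7.33 and 12.4 ± 5.79 CPM (0.53, SE 0.23). TNFRSF17, at 2.33 ± 1.57 and 3.77 ± 2.27 CPM, was lower in females by a log2 fold change of -0.67 (SE 0.29), and CTSS by one of -0.25 (SE 0.11). Each of the 5 had an edgeR adjusted P-value of 0.979. BTK lies on the X chromosome, and had 69.2 ± 9.14 CPM in females and 64.5 ± 6.76 CPM in males (log2 fold change 0.11, SE 0.07).

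The HTG effect itself was compared between the sexes, with 5 cases and 8 controls among the females and 8 cases and 10 controls among the males. No gene of the 15030 passed the threshold, and 5 of the 37 had an unadjusted P-value below 0.05, where 3.97% of the genes tested had one. All 3 plasma cell genes and TNFRSF17 were among them, with log2 fold changes above 0 in females and below 0 in males. For TNFRSF17 the mean was 3.23 ± 2.36 CPM in female cases and 1.77 ± 0.353 CPM in female controls, and 2.63 ± 0.625 CPM in male cases and 4.68 ± 2.71 CPM in male controls, a difference between the log2 fold changes of 1.70 (SE 0.48, unadjusted P = 0.0013, edgeR adjusted P = 1.00). JCHAIN had 164 ± 95.9 and 108 ± 33.6 CPM in female cases and controls and 144 ± 41.4 and 222 ± 141 CPM in male ones, with a difference of 1.23 (SE 0.47). The difference was 0.81 (SE 0.37) for IRF4 and 0.56 (SE 0.22) for PRDM1. CD72 went the other way, with log2 fold changes of -0.10 in females and 0.86 in males and a difference of -0.96 (SE 0.42). Single dogs carried much of the difference in the plasma cell genes and TNFRSF17. Cases 12 and 13, both females, had 286 and 246 CPM of JCHAIN and 102 and 99.1 CPM of IRF4, where the other 3 female cases had 68.3 to 122 and 36.2 to 51.3 CPM. In the study's list of dogs, case 12 is the only dog that was not neutered. Without cases 12 and 13 the differences were 0.97 for TNFRSF17, 0.44 for JCHAIN, 0.19 for IRF4 and 0.21 for PRDM1, none with an unadjusted P-value below 0.05. That of CD72 was then -1.09 (SE 0.47), with an unadjusted P-value still below 0.05. Controls 9 and 14, which had the highest JCHAIN levels, were both males. Without these controls the differences were 1.31 for TNFRSF17, 0.73 for JCHAIN, 0.55 for IRF4 and 0.43 for PRDM1. That of CD72 was -0.82. TNFRSF17 and PRDM1 were then the 2 of the 37 genes with an unadjusted P-value below 0.05.

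Wider lists of the same pathways gave no called gene either. Of 29 other B cell genes tested, 3 were higher and 1 was lower in cases at an unadjusted P-value below 0.05, with a median log2 fold change of 0.05. Of all genes tested, 5.04% were higher and 4.76% lower at that level, and the counts of each list below are to be read against these shares. CD200, an inhibitory ligand found on B cells and other cells, had 13.7 ± 4.24 CPM in cases and 9.72 ± 2.81 CPM in controls (log2 fold change 0.49, SE 0.15, edgeR adjusted P = 0.232), and 11 of 13 cases exceeded the control median. CCR6, a chemokine receptor of B cells and some T cells, had 10.1 ± 2.69 and 13.5 ± 5.65 CPM (log2 fold change -0.42, SE 0.18, edgeR adjusted P = 0.429). BCL11A, a transcription factor of the early lineage, had a log2 fold change of 0.24 (SE 0.11), and IL4R, a receptor for interleukin 4, one of 0.17 (SE 0.08). Of 19 other genes of B cell receptor signalling, 2 were higher at that level and 0 lower, the adaptor DAPP1 at 0.36 (SE 0.13) and the membrane protein CD81 at 0.14 (SE 0.06), with a median of 0.03.

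Of the 9 genes around the survival factors BAFF and APRIL, 1 had an unadjusted P-value below 0.05. It was TNFSF13B, which encodes BAFF itself, with 19.4 ± 3.65 CPM in cases and 15.8 ± 4.22 CPM in controls (log2 fold change 0.29, SE 0.12, edgeR adjusted P = 0.393) and 11 of 13 cases above the control median. TNFSF13, which encodes APRIL, had a log2 fold change of 0.10 (SE 0.12). Of 14 other class I genes, PSME1, an activator of the proteasome, was the 1 with such a P-value (0.21, SE 0.09). NLRC5, the coactivator of class I genes, had 225 ± 29.7 and 221 ± 65.2 CPM (0.02, SE 0.11). Of 14 other class II genes, 2 were higher and 2 lower. RFXANK, part of the complex that binds class II promoters, had 0.23 (SE 0.08), while NFYB and NFYA, subunits of another factor that binds there, had -0.13 (SE 0.06) and -0.18 (SE 0.09), and the lysosomal protease CTSD had 0.21 (SE 0.09). Only 1 of the 10 immunoglobulin symbols looked for had a row. It was IGHM, the heavy chain of IgM, with 1648 ± 1020 CPM in cases and 1663 ± 830 CPM in controls (log2 fold change -0.01, SE 0.26).

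Markers of the other cells of blood are given beside these results because they share the libraries. Of 12 T cell markers tested, 11 had log2 fold changes below 0, with a median of -0.18 and 1 lower at an unadjusted P-value below 0.05, and their summed level was 441 to 1107 CPM in cases and 478 to 1175 CPM in controls. The 10 monocyte markers had a median of 0.10 and summed to 1568 to 2372 CPM in cases and 1194 to 3716 CPM in controls. The 9 NK and cytotoxic cell markers had a median of 0.16 (47.8 to 205 and 28.4 to 261 CPM). The 7 dendritic cell markers had a median of 0.00 (86.5 to 145 and 78.6 to 130 CPM), and 1, SIGLEC1, was higher at that level (log2 fold change 0.50, SE 0.19). The 9 neutrophil markers had a median of 0.16 (6636 to 14649 and 4464 to 20704 CPM), and 2 were higher at that level, MMP9 at 1.05 (SE 0.49) and LTF at 0.77 (SE 0.38), each with 13 of 13 cases above the control median. No NK, monocyte or red cell marker had such a P-value. Of 11 platelet markers, 10 had an unadjusted P-value below 0.05, all higher in cases, with a median of 0.61 and sums of 1901 to 6991 CPM in cases and 1241 to 6635 CPM in controls. The 10 red cell markers had a median of 0.62 and sums of 1067 to 19774 and 891 to 35260 CPM. None of these markers passed the adjusted threshold. B2M and other class I genes are made by platelets and by nearly all leukocytes, and the part of these cells in the values of B2M, TAPBP and DLA-12 was not tested.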

How the data were processed

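Whole-blood RNA of 31 dogs was sequenced, per the labels after removal of ribosomal RNA with a stranded total RNA kit. The authors trimmed reads with Trimmomatic, aligned them with HISAT2 to the Dog10K_Boxer_Tasha genome, and deposited raw counts of read pairs per Ensembl gene, without normalization. The counting program, its strand setting and the annotation are not given in the sources used here, the labels and the methods name different extraction kits, and the labels call the molecule polyA RNA although the kit is for total RNA, which bears on the small RNA rows and could not be settled here.

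Group and sex came from the labels. With R 4.3.3 and edgeR 4.0.16, counts were TMM-normalized, filtered with filterByExpr by group (by group and sex for sex) and tested with glmQLFit and glmQLFTest without a covariate, with Benjamini-Hochberg adjustment. SE is the log2 fold change divided by the square root of F. Log2 CPM used a prior count of 2. DESeq2 1.42.0 (the tool of the study's methods) and limma 3.58.1 were alternatives, with those of the closing section. Python 3.11.15, numpy 2.4.6, scipy 1.17.1, pandas 2.3.3 and matplotlib 3.10.9 were used for correlations and figures. The tests were checked on simulated counts. The study's methods use batch as a covariate, and the labels name no batch, so the main test has none. The dogs were parted at the widest gap in small RNA level, which the labels do not name as a batch. The study's methods describe a pilot of 10 dogs, 5 cases and 5 controls, prepared earlier. The high side holds as many of each, and whether they are the same dogs was not tested.

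Members and lists were chosen with earlier results of these data known. The genes named are all 37 members, up to 4 genes of each other list with the smallest unadjusted P-values, and the 20 genes nearest MS4A1, of which 1 is not reported here. DLA88, TNFSF13, NLRC5 and single dogs were named after their values were seen. No 2 columns of counts were identical. Sequences are not shown, because no genome or transcript sequence was used here. Of the RefSeq annotation only the symbols and the order of genes were used, and coordinates are not shown.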

Additional observations from a re-analysis of the deposited data

How the results depend on the processing

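Over 19 alternatives to the comparison of HTG cases and controls (18 for B2M, which is among the 20 genes with the highest totals left out in 1 of them), 0 of the 37 genes passed the threshold, and 14 of them kept the sign of their log2 fold change throughout, BANK1, TAPBP, DLA-12, B2M, CD72 and TNFRSF13B among them. On the low side of the small RNA split 2 genes were higher at an unadjusted P-value below 0.05, against 4 in all dogs, and of these 4 DLA-12 was the one left, beside CTSS. Of the same 4, BANK1 was the one left on the high side, DLA-12 missed that level with age as a covariate and without case 1 and control 3, and B2M missed it under the replicate block. In BANK1 the log2 fold change ran from 0.15 to 0.51 and in CD72 from 0.11 to 1.13, the ends being the low and the high side. The numbers shared by a case and a control do not pair the dogs: over 13 such pairs the correlation of their deviations ran from -0.44 to 0.26, 3 pairs were over 0.1, and 1 case correlated best with its own number. In the study's list of dogs the numbers follow falling triglycerides within each group. Controls 14 to 18 share no number with a case, so they carry no weight in log2 fold changes fitted with the number as a block. With this number as a replicate block, 0 genes were called, 6 of the 37 genes (DLA-DOA, TAPBP, CD72, CD22, BANK1 and DLA-12) had an unadjusted P-value below 0.05 (6.16% of the genes tested), and the log2 fold changes of DLA-64 (0.0087), BLK (0.073), FCRLA (0.15), CD74 (-0.0038), TNFRSF17 (0.091) and JCHAIN (0.038) turned sign. On the high side of the split the sign turned for DLA-64 (0.089), DLA-DRA (-0.015), DLA-DQA1 (-0.045), DLA-DMA (-0.034), BLK (0.21), FCRLA (0.019), POU2AF1 (-0.11) and CD74 (-0.048). There, without control 3, it turned for DLA-64 (0.047), DLA-DRA (-0.11), HLA-DRB1 (-0.097), DLA-DQA1 (-0.18), DLA-DMA (-0.11), DLA-DMB (-0.074), TAP1 (-0.0061), BLK (0.074), CTSS (-0.048), POU2AF1 (-0.23) and CD74 (-0.12). Over all genes, edgeR called 154 without control 3 and 28 without case 1 and control 3, against 5. On the low side it turned for DLA-DOB (-0.12), TNFRSF13C (-0.12), PAX5 (-0.11), CD22 (-0.012), MS4A1 (-0.020), CD86 (0.039), EBF1 (-0.17), BTK (-0.038) and CIITA (-0.053). The remaining turns were of values near 0. For CD74 they came with age as a covariate (-3.1e-05), with sex (-0.0056), in limma-voom (-0.0059), without case 1 and control 3 (-0.023), without case 9 (-0.010), without control 3 (-0.022) and without control 14 (-0.0087), and its value was 0.0083 without control 11. For CD86 they came with the side as a covariate in edgeR (0.0094) and DESeq2 (0.010) and without case 7 and control 2 (0.0048), where DLA-DOB (-0.017) and BTK (-0.0096) also turned. FCRLA turned in limma-voom (0.012) and without control 14 (0.00042), and was -0.042 without case 9 and -0.076 without control 3. With the side as a covariate, TAP1 turned between the sexes (-0.0019), and the difference of the HTG effect between the sexes turned for DLA-64 (0.0076), CD79A (0.029) and DLA-79 (0.058). Without cases 12 and 13 that difference had 0 genes higher at an unadjusted P-value below 0.05 in place of 4, and it turned for BLK (-0.068), DLA-79 (0.022), MS4A1 (0.022), FCRLA (-0.25) and TNFRSF13B (-0.076). Without controls 9 and 14 there were 2 higher and 0 lower in place of 1 lower, and it turned for DLA-64 (0.015), TNFRSF13C (0.0021), CD79A (0.022), BLK (-0.11), DLA-79 (0.073), MS4A1 (0.0092) and FCRLA (-0.033). Among correlations below the threshold, MS4A1 with CD74 was -0.29 and MS4A1 with JCHAIN 0.081 on the high side, TAP1 with B2M was 0.33 on the low side and 0.12 without control 3 but -0.42 on the high side, and without the 2 farthest dogs MS4A1 with TNFRSF13B was 0.043 and with JCHAIN 0.025. Of the 16 correlations past the threshold, 5 missed it on the high side, 1 on the low side, 3 without the 2 farthest dogs, 2 without control 3 and 1 with the group means taken out. The dogs without case 9, cases 12 and 13, controls 9 and 14, control 3, control 11 or control 14, those without case 7 and control 2, and DESeq2 with the side as a covariate were chosen after seeing the data, and the cause of these turns was not tested. The depth leaves 14 counts in the lowest dog for TNFRSF13B and 18 for TNFRSF17, and P-values of the 10 dogs of the high side rest on 5 against 5.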
